A study of Drosophila melanogaster with 2 samples.

Results

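The genes described here are the translation initiation and elongation factor genes of Drosophila melanogaster, taken as every protein-coding gene whose symbol in the Ensembl BDGP6 annotation starts with eIF or eEF. They number 52 of the 13945 protein-coding genes on the main chromosomes, 44 with an eIF symbol and 8 with an eEF symbol. The series mapped where Hr83, an orphan nuclear receptor, sat on chromatin, by ChIP-seq. Whole larvae were used at the wandering stage of the third instar, with both sexes pooled and no age given. The larvae came from a transgenic line that makes Hr83 fused at its C-terminus to GFP, and the precipitation was done against GFP. There was 1 group, Hr83-GFP larvae, with 2 biological replicates numbered 3 and 4, so no condition is set against another and no p-value is given. Nothing in the labels says whether the native gene was still active or how strongly the transgene was expressed, and larvae without the tag were not analysed here. The deposited lists hold no read counts, so the depth is unknown.

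Initiation factors bring the small ribosomal subunit to the capped end of an mRNA and move it to the start codon. In this process eIF2 carries the initiator tRNA, eIF2B recharges eIF2 with GTP, eIF3 is the large scaffold on the small subunit, and eIF4E, eIF4G and eIF4A bind the cap, bridge and unwind. Elongation factors then deliver aminoacyl-tRNAs (eEF1) and move the ribosome along (eEF2). The core factors among these genes are used in nearly every cell, though not every gene with such a symbol is. In a growing larva the protein synthesis they serve is high in tissues such as the fat body and salivary gland.

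A gene was counted as carrying a peak when the summit of a peak lay within 1 kb of any of its annotated transcription start sites (TSSs). Peaks came from the authors' thresholded list, made from both replicates with a reproducibility threshold, and weaker regions from their relaxed lists. Of the 4797 thresholded peaks, 4690 overlapped a region in the relaxed list of each replicate. The signal is the authors' own score for each peak, with no unit, and is read only within a list. Sequences at 5 of the stronger peaks are shown first, to show what lay under the summits. They are not the top 5: the peaks of eIF6 and eEF1alpha1, stronger than that of eIF4EHP, were outside the set of chromosome arms from which sequence was taken. Each is the stretch within 100 bp of a summit that lies outside annotated exons, apart from up to 15 bases at an exon's edge, on the dm6 assembly and 5′ to 3′ on the strand of the factor gene. Capitals mark the DRE, TATCGATA, the element of the promoter factor DREF, and would also mark the other motifs searched except the TATA box.
eIF2Bbeta, chrX:2703838-2703982, plus strand: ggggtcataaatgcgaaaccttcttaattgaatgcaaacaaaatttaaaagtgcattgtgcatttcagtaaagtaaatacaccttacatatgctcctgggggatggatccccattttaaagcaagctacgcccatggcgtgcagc
eIF1, chr3L:3222946-3223095, plus strand: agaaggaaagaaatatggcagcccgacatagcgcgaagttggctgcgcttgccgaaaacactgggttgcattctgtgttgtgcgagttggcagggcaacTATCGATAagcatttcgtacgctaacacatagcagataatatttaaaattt
eIF3a, chr3R:4433881-4433979, minus strand: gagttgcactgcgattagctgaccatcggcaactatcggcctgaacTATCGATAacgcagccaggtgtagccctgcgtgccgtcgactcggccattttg
eIF3h, chr2L:5052363-5052562, minus strand: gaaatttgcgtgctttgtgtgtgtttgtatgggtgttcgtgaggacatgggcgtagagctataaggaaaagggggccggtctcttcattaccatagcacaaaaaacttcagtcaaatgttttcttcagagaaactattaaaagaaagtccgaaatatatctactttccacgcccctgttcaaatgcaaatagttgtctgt
eIF4EHP, chr3R:24108946-24109098, minus strand: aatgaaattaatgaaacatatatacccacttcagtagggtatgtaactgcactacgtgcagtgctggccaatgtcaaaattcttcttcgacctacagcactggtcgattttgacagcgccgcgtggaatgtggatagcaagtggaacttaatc
The stretches at eIF1 and eIF3a each held a DRE, and those at eIF2Bbeta, eIF3h and eIF4EHP held none of the motifs marked. A window was also sought at eIF2A, but it lay wholly in annotated exons.

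Of the 52 factor genes, 21 carried a thresholded peak, 40.4% (95% Clopper-Pearson interval 27.0 to 54.9), against 27.3% of all protein-coding genes, a share just inside that interval. A further 17 had a relaxed region only and 14 had neither in the lists that combine both replicates. In the pooled relaxed list, 38 factor genes had a region, 73.1% (59.0 to 84.4), against 62.3% of all genes. The share of all genes lay below the interval of the factor genes in the relaxed list of replicate 4, with 40 factor genes (76.9%, 63.2 to 87.5) against 62.3%. In that of replicate 3, with 38 factor genes (73.1%, 59.0 to 84.4) against 61.0%, it lay inside it. Among genes with a peak, the strongest peak per gene had a median signal of 124 at factor genes and 102 at all protein-coding genes. The factor gene median was 111 when a peak counted only for the gene with the nearest coding TSS. All genes were not compared in that setting. These intervals cover counting error over genes only, and no test of the list was made.

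**Figure D1:**
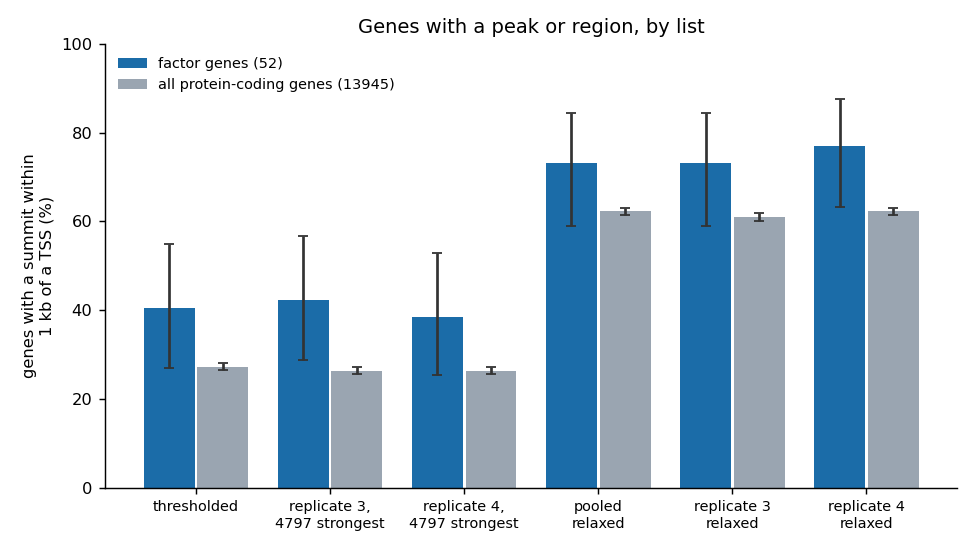
Percentage of genes with a summit within 1 kb of a TSS in each list, for the 52 factor genes (blue) and all 13945 protein-coding genes (grey), with 95% Clopper-Pearson intervals as bars. In the thresholded list the share is 40.4% for the factor genes and 27.3% for all genes.

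Genes with several annotated TSSs carried peaks more often, both among the factor genes and in general. A peak was found at 12 of the 20 factor genes with 2 or more TSSs (60.0%, against 45.2% of all such genes) and at 9 of the 32 with 1 TSS (28.1%, against 20.8%). Median gene length was 1955 bp for the factor genes and 2166 bp for all protein-coding genes. The part of TSS number in the overall share was not tested beyond these values. Larvae were taken whole, so a weak peak in many cells and a strong one in few cannot be told apart.

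Start codon scanning and delivery of the initiator tRNA were represented by eIF1, eIF2gamma and eIF2A. eIF1, which keeps the scanning complex open until the start codon is met, had a peak with a signal of 155 in replicate 3 and 175 in replicate 4 (ranks 88 and 104 of 30000), and 336 in the pooled list (rank 76, 3L, 3222938 to 3223069). Its summit lay 346 bp upstream of the eIF1 TSS and 35 bp upstream of that of RpL28, a ribosomal protein gene. A weaker peak of eIF1 had its summit in the 5' UTR, 7 bp from the TSS, scored 92.7 by the authors, with rank 1329 for replicate 3 and rank 8758 for replicate 4. The replicates thus ranked the stronger of the eIF1 peaks alike and the weaker one apart.

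Of the eIF2 subunits, which together carry the initiator tRNA and GTP, only eIF2gamma had a thresholded peak, with a signal of 195 (rank 372 of the 4797 thresholded peaks, 3R, 15263370 to 15263625). It had a signal of 60.6 and rank 999 in replicate 3, and 127 and rank 303 in replicate 4. The summit lay 40 bp upstream of a start site that eIF2gamma shares with Su(var)3-9, the gene of a histone H3 lysine 9 methyltransferase, and 54 bp upstream of one of Set. For eIF2beta the pooled list held only a weak region (signal 25.8, rank 17403), and for eIF2alpha, the subunit phosphorylated under stress, none. eIF2A, a protein with a proposed part in non-canonical initiation, had a peak of signal 210 in its 5' UTR (rank 295, 3L, 21824797 to 21825052), 40 bp upstream of the nearer of its TSSs, with rank 197 in replicate 3 and 843 in replicate 4. eIF2D had a relaxed region only (40.3), 20 bp upstream of its TSS.

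The strongest peak near any factor gene lay at eIF2Bbeta, 1 of the 5 eIF2B subunit genes. Of these 5 genes 3 had thresholded peaks, against 27.3% of all protein-coding genes, a small count that was not tested. The eIF2Bbeta peak had a signal of 392 in replicate 3 and 463 in replicate 4, ranks 5 and 7, and 835 in the pooled list (rank 7, X, 2703770 to 2703999). Its summit lay in intergenic sequence 689 bp upstream of the eIF2Bbeta TSS, but 30 bp from that of Ugalt, a UDP-galactose transporter gene. A DRE, described further on, lay 32 bp downstream of the eIF2Bbeta TSS and so 721 bp from this summit. eIF2Bgamma had a peak of its own 31 bp upstream (2R, 15542502 to 15542757, signal 96.6, rank 2261 of the thresholded peaks, ranks 3144 in replicate 3 and 2652 in replicate 4). At eIF2Bdelta both peaks (74.4 and 67.8) were nearer to other genes, 359 bp from CG30414 and 8 bp from roh. eIF2Bepsilon, the catalytic subunit, had a relaxed region only (37.6), and eIF2Balpha had none in the pooled list.

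**Figure D2:**
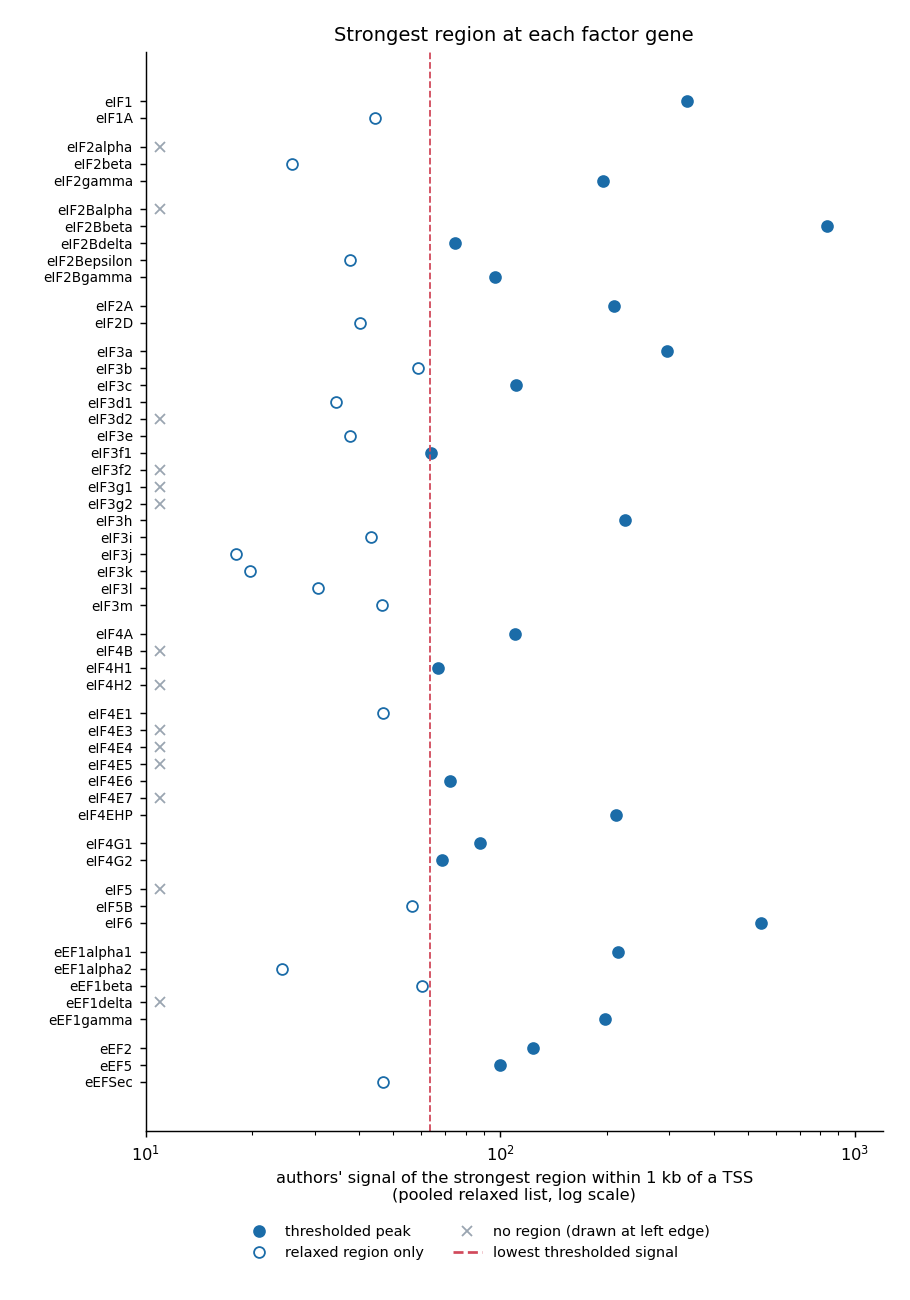
Signal of the strongest region within 1 kb of a TSS for each of the 52 factor genes, in the pooled relaxed list and on a log axis, ordered by role; filled points are thresholded peaks, open points relaxed regions, crosses genes with no region. The dashed line is the lowest thresholded signal, 63.3, and eIF2Bbeta (835) and eIF6 (543) stand highest.

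In the eIF3 scaffold, 4 of 16 genes had a thresholded peak, 8 had a relaxed region only and 4 had neither. The 25.0% called (7.27 to 52.4) was close to the 27.3% of all protein-coding genes. eIF3a, the largest subunit, had a signal of 127 in replicate 3 and 170 in replicate 4, ranks 127 and 116, and 296 in the pooled list (rank 115, 3R, 4433879 to 4434005). The summit lay 54 bp upstream of the eIF3a TSS and 16 bp upstream of the TSS of the neighbour CG1074. At eIF3h there were 2 peaks on 2L, ranked 238 (5052401 to 5052518, signal 225) and 338 (5052764 to 5052835, signal 201). The one 317 bp downstream, in an intron, had a signal of 137 and rank 107 in replicate 3 against 87.8 and rank 906 in replicate 4. The other, in the 5' UTR 29 bp upstream of the nearest eIF3h start and 34 bp from senju, had 103 (rank 238) and 106 (rank 535). eIF3c had a peak of 111 at 17 bp downstream of its TSS with close ranks, 1600 and 1550. eIF3f1 was the weakest factor gene called, at 63.9.

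Among the cap-binding genes, eIF4EHP and eIF4E6 were called and eIF4E1 was not. eIF4EHP, a cap-binding protein that holds mRNAs back from translation, had a peak of 212 in intergenic sequence 38 bp upstream of its TSS (3R, 24108963 to 24109045, rank 285), with rank 167 in replicate 3 and 673 in replicate 4. eIF4E1, the main cap-binding factor, had a relaxed region only (46.6, rank 7559), 6 bp from a TSS. eIF4E6 had a weak peak (3R, 29027118 to 29027373, 72.2, rank 3879 of the thresholded peaks, 2508 in replicate 3 and 6222 in replicate 4) that lay 72 bp from its own TSS and 10 bp inside CG1951. eIF4A, the helicase, had a peak 72 bp upstream of its nearest TSS, in its 5' UTR (2L, 5982394 to 5982649, signal 109, rank 1751 of the thresholded peaks, 878 in replicate 3 and 1287 in replicate 4). It also had a peak of 110 (5980793 to 5981048, rank 1700) at 843 bp upstream, in the 5' UTR of the profilin gene chic, with rank 540 in replicate 3 and 5403 in replicate 4. Both scaffold genes, whose proteins bridge cap and ribosome, were called. eIF4G1 had 87.9 at 21 bp upstream on chromosome 4 (930608 to 930863, rank 2703), with rank 3388 in replicate 3 and 3550 in replicate 4. eIF4G2 had 68.6 (3R, 23819138 to 23819393, rank 4243), 29 bp upstream of a start that it shares with CG33111, with rank 1550 in replicate 3 and 8454 in replicate 4. eIF4H1, whose mammalian counterpart aids the helicase, had 66.7 in an intron, 118 bp upstream of its nearest TSS (X, 16448906 to 16449161, rank 4422, with 2925 in replicate 3 and 5745 in replicate 4). eIF4B and eIF4H2 had no region.

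Of the factors that join the subunits or keep them apart, eIF6 had the second strongest peak of all the factor genes. eIF6, which binds the large subunit and keeps it from joining early, had a signal of 275 in replicate 3 and 270 in replicate 4, ranks 21 and 27, and 543 in the pooled list (rank 25, 2R, 23850320 to 23850492). The summit lay 88 bp upstream of the eIF6 TSS, which was the nearest coding start, inside an intron of ytr and an exon of the antisense RNA asRNA:CR45928. The start of that noncoding RNA was nearer, 59 bp from the summit. eIF5B, the GTPase of subunit joining, missed the threshold with 56.5 at rank 5740, and eIF5 had no region.

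Of the 8 elongation factor genes 4 were called (95% interval of the share 15.7% to 84.3%), an interval that holds the 27.3% of all protein-coding genes. eEF1alpha1, which encodes the main carrier of aminoacyl-tRNA and is among the most abundant proteins of a cell, had 3 peaks on 2R. The strongest (215, rank 269, 11891956 to 11892211) lay in an intron of the gene, 38 bp upstream of one of its TSSs. It had a signal of 147 and rank 95 in replicate 3 but 61.9 and rank 2078 in replicate 4. The peak of 136 (rank 1035, 11890898 to 11891153) lay between eEF1alpha1 and ERp60, 109 bp from the first and 47 bp from the second, with rank 1458 in replicate 3 and 816 in replicate 4. So the order of these peaks was opposite in the replicates. The weakest (63.6, rank 4761) was among the lowest in the thresholded list, 229 bp upstream of a further TSS. It had 31.3 and rank 3871 in replicate 3, but 67.5 and rank 1739 in replicate 4, above the 61.9 of the strongest peak there. eEF1gamma, a subunit of the exchange complex, had a peak of 198 in intergenic sequence 29 bp upstream (3R, 29220094 to 29220185, rank 358, with 461 in replicate 3 and 184 in replicate 4).

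eEF2, the translocase, had a peak of 124 in its 5' UTR, 44 bp downstream of a TSS, with signals of 52.1 in replicate 3 and 94.2 in replicate 4 (2L, 21681944 to 21682199, rank 1291, with 1424 and 756 in the replicates). eEF5, the hypusine-containing factor once named eIF5A, had one of 99.8 at 6 bp upstream (2R, 24057664 to 24057919, rank 2114, with 1162 in replicate 3 and 2509 in replicate 4). No coding start other than its own lay within 1 kb of the peaks of eEF1gamma and eEF2. The second alpha gene, eEF1alpha2, had a relaxed region only (24.2), as did eEFSec (46.7), the factor for selenocysteine. eEF1beta, with 60.3 at rank 5179, was the factor gene nearest below the threshold, and eEF1delta had no region in the pooled list.

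The factor genes just outside the limits were few. Below the threshold, eIF3b (58.6) and eIF5B followed eEF1beta, and the other relaxed-only genes reached down to 18.0 at eIF3j. Just beyond 1 kb, a thresholded peak lay 1132 bp upstream of eEF1delta (84.9) and another 1387 bp downstream of the eIF3g1 start (141). The peak of eIF4A at 843 bp was the farthest inside. The genes with neither a peak nor a pooled region were eIF2alpha, eIF2Balpha, eIF3d2, eIF3f2, eIF3g1, eIF3g2, eIF4B, eIF4E3, eIF4E4, eIF4E5, eIF4E7, eIF4H2, eIF5 and eEF1delta. Of these 14, 11 had no region in the list of either replicate, the exceptions being eEF1delta, eIF2Balpha and eIF3f2. The genes with a relaxed region only and not yet named were eIF1A, eIF3d1, eIF3e, eIF3i, eIF3k, eIF3l and eIF3m.

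The replicates ranked the peaks at factor genes in a similar order. The 21 genes had 27 distinct peaks, and all of these overlapped a region in the list of each replicate. Spearman's rho between their ranks was 0.70 over 27 peaks, against 0.40 over the 4690 thresholded peaks found in both lists. It is a description only, since the thresholded list was made from these same replicates with a reproducibility threshold. In 16 of 27 the rank was nearer the top in replicate 3, a count with no share over all thresholded peaks to set beside it. Of the factor gene peaks 20 (74.1%) ranked within the 4797 strongest of both replicates, against 60.9% of all thresholded peaks. The factor gene peaks were also stronger, with 18 of 27 (66.7%) among the 2398 strongest thresholded peaks. Their median rank was 1162 in replicate 3 and 1550 in replicate 4, against 2461 and 2472 for all thresholded peaks. The part of peak strength in the rho and in these shares was not tested.

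Each replicate taken alone gave close counts. From the 4797 strongest regions of replicate 3, 22 factor genes were called (42.3%, against 26.4% of all genes), and from those of replicate 4, 20 (38.5%, against 26.3%). In both replicates, 17 factor genes were called, 32.7%, against 20.1% of all genes. Those called from replicate 3 alone were eIF3m, eIF4E6, eIF4G2, eIF4H1 and eIF5B, and those from replicate 4 alone were eEF1beta, eIF2D and eIF3f1.

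**Figure D3:**
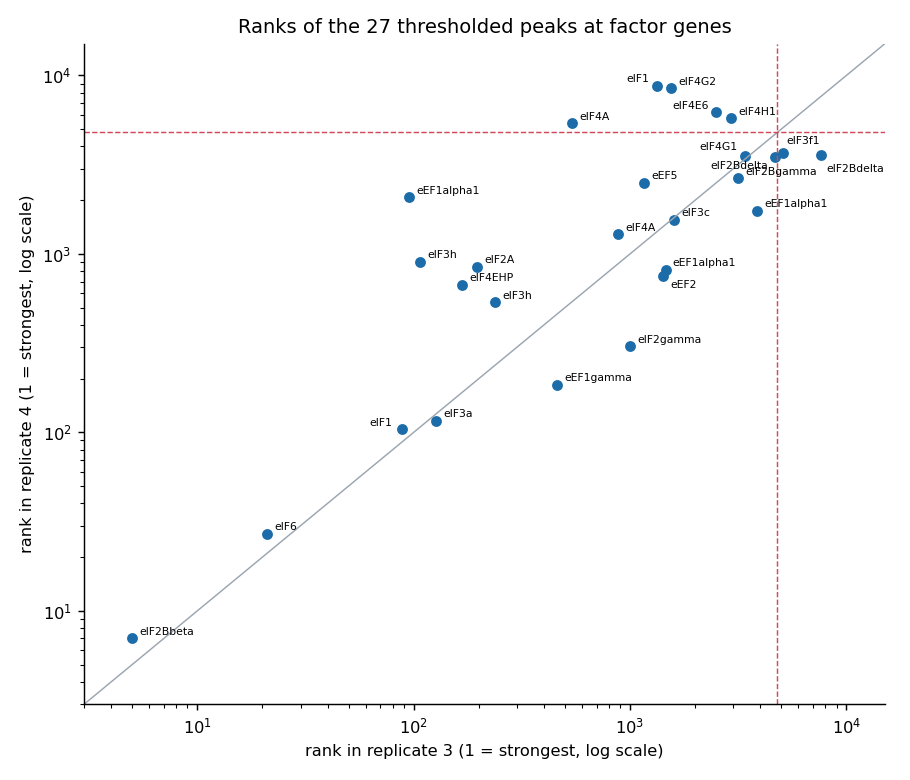
Rank of each of the 27 thresholded peaks at factor genes in replicate 3 and in replicate 4, on log axes with rank 1 the strongest; the grey line marks equal ranks and the dashed lines rank 4797. eIF2Bbeta (5 and 7) and eIF6 (21 and 27) lie close to the line, while a peak of eEF1alpha1 (95 and 2078) lies far from it.

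Most summits lay upstream of the nearest TSS of the factor gene, and many peaks had another coding gene near. Of the 27 peaks 19 (70.4%) had a summit within 100 bp of a TSS of the factor gene. Counting the strongest peak per gene and the gene's own TSSs, this held for 71.4% of 21 factor genes and 53.0% of all 3805 genes with a peak. Of the 27, 23 lay upstream of the nearest TSS of the factor gene. Some of these lay inside the gene, upstream of a later TSS, at eEF1alpha1, eIF2A, eIF3h, eIF4A and eIF4H1. For the strongest peak per gene, 85.7% of 21 factor genes and 75.4% of all 3805 genes with a peak had it upstream, at a median of -40.0 and -53.0 bp. Another protein-coding gene had a TSS within 1 kb of 18 of the 27 peaks (66.7%), while 39.3% of the 3378 thresholded peaks at coding starts had 2 or more coding genes there. These shares are unlike: the 27 were reached through genes, so a peak near several genes had more ways to enter. The 3378 were taken peak by peak. The part of this in the difference was not tested. The factor gene had the nearest coding TSS at 19 of 27 peaks. When a peak counted only for the gene with the nearest coding TSS, 17 factor genes were called, 32.7%, against 20.2% of all genes. The calls at eIF2Bbeta, eIF2Bdelta, eIF3a and eIF4E6 were lost.

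**Figure D4:**
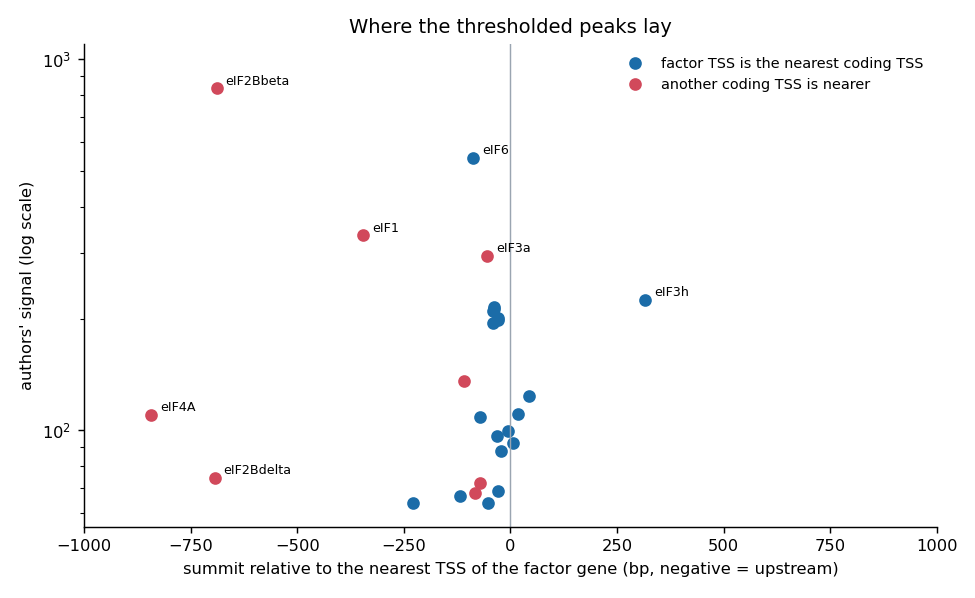
Summit position of the 27 thresholded peaks relative to the nearest TSS of the factor gene (bp, negative upstream) against the authors' signal on a log axis; blue, the factor gene has the nearest coding TSS, red, another coding gene is nearer. The strongest peak, at eIF2Bbeta, is red and lies 689 bp upstream, and 19 of the 27 points lie within 100 bp.

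The DRE was found at 15 of the 52 factor gene promoters, 28.8% (17.1 to 43.1), against 10.5% of all protein-coding promoters. Ribosomal protein gene promoters held it at a like share, 30.4%. Motifs were searched on both strands within 250 bp of any TSS of a gene. Genes with 2 or more TSSs, 20 of the 52 factor genes and 3699 of all 13945, could thus have more sequence searched. The part of this in the motif shares was not tested. A thresholded peak was found at 10 of the 15 factor genes with a DRE (66.7%, 38.4 to 88.2) and at 44.9% of the 1466 genes with a DRE in general. It was found at 11 of the 37 factor genes without one (29.7%, 15.9 to 47.0), against 25.2% of such genes in general. At the summits, within 100 bp, a DRE was found at 8 of the 27 peaks (29.6%), those of eIF6, eIF1, eIF3a, eIF2A, eEF1gamma, eIF2gamma, eIF4E6 and eIF3f1, against 6.50% of all 4797 thresholded peaks. These sets are unlike: all 27 lie within 1 kb of a coding TSS by the rule, but only 3378 of the 4797 do. The DRE at the eIF1 peak lies beyond the promoter window of eIF1, on the RpL28 side.

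The DRE sites nearest the TSS of called factor genes are shown with their flanks, aligned on the element in capitals, for 6 genes in which the site lay within 50 bp of a summit. They are read on the strand of the gene. Of the other called genes with a DRE, eIF6 and eIF3c were outside the set of chromosome arms from which sequence was taken, and the sites of eIF4A and eIF2Bbeta lay 795 bp and 721 bp from the nearest summit.
eEF1gamma, chr3R:29220120-29220149, 8 bp from the summit: ggcctaggaaaTATCGATAtatcgccgtaa
eIF4E6, chr3R:29027214-29027243, 17 bp: atcacgcgataTATCGATAtgtttcgattg
eIF3a, chr3R:4433915-4433944, 19 bp: tcggcctgaacTATCGATAacgcagccagg
eIF2gamma, chr3R:15263449-15263478, 34 bp: gattagagcacTATCGATAggcattgtcgg
eIF2A, chr3L:21824865-21824894, 45 bp: ttactatcgctTATCGATAcaccgcgtaca
eIF3f1, chr3R:4714172-4714201, 47 bp: cccacccgcacTATCGATAggcccttttct
A DRE near the start did not go with a peak at every gene. It was also found 25 bp upstream of the eEF1delta TSS, 10 bp upstream of that of eIF2alpha and 16 bp upstream of that of eIF4B, none of which had a pooled region.
eEF1delta, chr2L:10232467-10232496, plus strand: gatggcgtagaTATCGATAtacctgcattc
eIF2alpha, chrX:16446988-16447017, minus strand: acgcaattaaaTATCGATAacaccactgtc
eIF4B, chr3L:27858272-27858301, minus strand: cccgaaataaaTATCGATAacgatatagga

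The shares of the remaining motifs in all genes lay inside the intervals of the factor genes, apart from the TCT initiator. The GAGA element GAGAGAG was found at 11.5% of factor gene promoters against 10.9% of all, Motif 1 (GTCACACT) at 7.69% against 8.03%, and the E-box CACGTG at 13.5% against 8.63%. The TATA box TATAAA was found at 51.9% against 59.9%. The hexamer AAGTCA of NR2E receptors, the class of Hr83, was found at 14 promoters (26.9%, against 28.2%), and the hexamer AGGTCA at 5 (9.62%, against 13.0%). At the summits, AAGTCA was found at 4 of 27 peaks (14.8%), those of eEF2, eIF3c, eIF4A and eIF2Bgamma, against 8.67% of all peaks. GAGAGAG was found at 0 of the 27, against 12.0% of all peaks. For both motifs the share of all peaks includes peaks away from coding starts.

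The TCT initiator, a polypyrimidine start site known from ribosomal protein genes and some factor genes, was searched as TCTTT on the gene's strand with its C within 5 bases of a TSS. It was found at 5 factor genes (9.62%, 3.20 to 21.0), eEF2, eEF5, eIF3i, eIF3m and eIF4A, against 2.23% of all genes. Of the 92 ribosomal protein genes 48.9% held it. The 30 bases around the start are shown for eEF2 and eIF4A, which had peaks, and for eIF3i, which did not, with the match in capitals.
eEF2, chr2L:21682102-21682131, minus strand: gtcgctgcagcgcctcgcTCTTTcctgtcg
eIF4A, chr2L:5981749-5981778, plus strand: cttttgcaagatggagccTCTTTtgcttgg
eIF3i, chr2L:4967761-4967790, minus strand: taggccacggtcacactgcTCTTTtggcgt
In none of the factor genes did the C fall exactly on an annotated TSS.

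**Figure D5:**
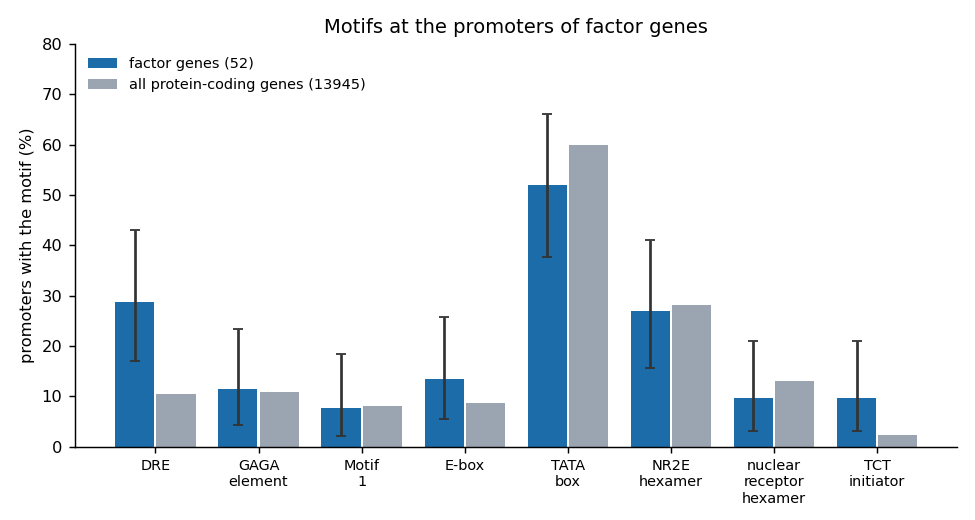
Percentage of promoters with each motif, for the 52 factor genes (blue, bars 95% Clopper-Pearson intervals) and all 13945 protein-coding genes (grey); promoters reach 250 bp either side of any TSS, and the TCT initiator is counted at the start only. The DRE stands at 28.8% against 10.5%.

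Other genes of translation, from a list not made by the symbol rule, carried peaks at a similar share. The list was chosen with earlier results of these data known, so its share is a description and no separate support. Of 42 listed symbols 34 were matched, and 16 of these had a thresholded peak, 47.1% (29.8 to 64.9), against the 27.3% of all genes. Among regulators of the cap and of mRNA binding 6 of 9 were called. Thor, the inhibitor that binds eIF4E, had a signal of 238 at 4 bp upstream of its TSS (ranks 400 in replicate 3 and 121 in replicate 4). pAbp, the poly(A)-binding protein, had 180, bel, a DEAD-box helicase, 129, NAT1, a relative of eIF4G, 123, mxt, a translation regulator that binds eIF4E, 113, and Paip2, which holds back pAbp, 82.1.

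The groups of listed genes hold 9 genes at most, and 27.3% of all protein-coding genes were called. Their counts were not tested against that share or against each other. Of the termination and recycling genes 3 of 5 were called. The release factor genes eRF1 and eRF3 had 117 and 104, and the recycling factor pix had 63.4 at a peak nearer to another gene. In reinitiation, MCTS1 was called (104) and DENR had no region. Of the genes that modify eEF5 or eEF2, 4 of 6 were called. Dph4, needed for the diphthamide of eEF2, had the strongest peak of the list, 281 (ranks 143 and 156). Dph1 had 106, nero, which acts on the hypusine of eEF5, had 98.1, and Dph2 had 69.7 nearer to another gene. Of the mitochondrial factors, 2 of 9 were called, mRF1 (126) and mEFTu2 (72.4). Gcn2, PEK and PPP1R15, which set the phosphorylation of eIF2, had relaxed regions only, at 40.2, 50.1 and 51.3.

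For scale, 69 of the 92 genes with RpL or RpS symbols had a thresholded peak, 75.0% (64.9 to 83.4), an interval above that of the factor genes. Of 17 cytosolic aminoacyl-tRNA synthetase genes, which charge the tRNAs, 5 did, 29.4% (10.3 to 56.0). Neither difference was tested.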

How the data were processed

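Chromatin from Hr83-GFP larvae was assayed in 2 biological replicates. The authors deposited dm6 region lists with a signal per region in column 7: a relaxed list of 30000 regions per replicate and 1 on both pooled, each derived from the alignments and a further file that also entered the control-normalized signal tracks, and a thresholded list of 4797 peaks made from these by irreproducible discovery rate, per the notes deposited with the samples. Which aligner and which caller were used is not given in the sources used here. Signals are not normalized between lists, depth is unknown, and nothing in the labels says more of how the replicates were obtained. The lists on the older assembly were not used.

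Summits (region start plus offset) were compared with Ensembl release 115 TSSs and the dm6 genome sequence. All 36 pairs of list and chromosome ended within the chromosome. Python 3.11.15 and scipy 1.17.1 were used. Intervals are 95% Clopper-Pearson and cover counting error over genes only. Ranks in a replicate are those of its strongest region overlapping the peak or, for listed genes, within 1 kb of a TSS. The counting was tested on simulated data. The rule for naming gave all factor genes, with full values for up to 2 per role and for every called eEF gene. Genes and lists were chosen with earlier results of these data known. The listed symbols Larp, Gcn1, Gcn20, mEFG2, DOHH, DHPS and Dph6 were not matched as spelled, and 4EHP is a factor gene here as eIF4EHP. A symbol without a match does not show that the gene is absent or not counted under another name.

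Alternatives were other TSS windows, the peaks stronger than the median, other TSS and gene assignments, each replicate alone and other forms of the motifs.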

Additional observations from a re-analysis of the deposited data

How the results depend on the processing

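The count of 21 called factor genes was between 15 and 22 in the other settings run but the 5 kb window, where it was 32 (61.5%, against 45.2% of all genes), and the listed translation genes were then 27. Each replicate alone gave 20 to 22 factor genes and 15 to 17 listed genes. The median signal of 124 was 210 among the 2398 strongest peaks, and 58.9 to 90.9 in the replicates, whose scores are on another scale. It was 110 in the 250 bp window, 135 in the 5 kb window and 111 with the nearest coding TSS only. The median distance of 44.0 bp was 332 bp in the 5 kb window, 72.0 bp with the most 5' TSS only, and 41.5 to 50.5 bp in the replicates. With the 7 base form TATCGAT, 26 factor gene promoters (22.3% of all genes) held a DRE in place of 15, and with the C exactly at a TSS, 0 held a TCT initiator (0.222% of all genes). Chosen after seeing the data, a 500 bp window left 37 genes with a relaxed region, and the strongest peak per gene gave a rho of 0.76. No paired analysis was possible because there was 1 group. Without read counts, a missing peak shows only that no region was listed.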

Other observations

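Genes numbered as later copies of a factor subunit were also counted, a grouping chosen after the values were seen. Of 11 such genes, 2 had a thresholded peak (eIF4G2 and eIF4E6), 18.2% (2.28 to 51.8), against 27.3% of all protein-coding genes and 20.8% of those with 1 TSS, as 9 of the 11 had. A further 1 had a relaxed region only (eEF1alpha2) and 8 had neither. These 8 were eIF3d2, eIF3f2, eIF3g2, eIF4H2, eIF4E3, eIF4E4, eIF4E5 and eIF4E7. Of the other 41 factor genes, 19 had a thresholded peak, 46.3% (30.7 to 62.6), and 6 had neither. In the pairs, eIF3d1 (34.5), eIF3f1 (63.9) and eIF4H1 (66.7) had a region where the copy numbered 2 had none in the pooled list, while neither eIF3g1 nor eIF3g2 had one. eEF1alpha1 was called and eEF1alpha2 was not. Other copies went otherwise: eIF4G1 (87.9) and eIF4G2 (68.6) were both called, and eIF4E6 (72.2) was called where eIF4E1 (46.6) was not. eIF4E3, with no region, and eIF4G2, with a thresholded peak, are known for roles in the male germline of the fly. The groups were not compared by a test.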
